A study of Rattus norvegicus with 8 samples.

Results

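Macrophages and related phagocytes are followed here through 37 genes. They were chosen by symbol from general knowledge of these cells, with earlier results of these data known. Of the 37, 36 had a probe set among the 15037 genes named on the array, and Itgax was not analysed here. Where a gene had several probe sets, the one with the highest mean was used. The tissue was kidney of 10-week-old male Sprague-Dawley rats, taken apart into renal cortex and renal outer medulla, and each zone's RNA was measured on Clariom S rat arrays. In both zones 4 treatments were measured, namely control, ethylene glycol, which the body turns into oxalate, with the vitamin D analogue alfacalcidol for 2 weeks to induce renal stones (EG), phlorizin, and EG with phlorizin. Phlorizin inhibits the sodium-glucose cotransporters of the tubule, and the study asked how their inhibition relates to stone formation.

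Each zone and treatment had 1 array, 8 in all, so comparisons of single arrays carry no error and no p-value. Cortex and outer medulla of a treatment can come from the same animals, and the sources used here do not say whether animals were pooled. The deposited values were taken as log2, and every difference below is a difference of log2 values. The table reached 19.70, above the log2 of the largest reading of an array scanner, so differences are given on the deposited scale and not as folds. Array medians lay between 7.39 and 7.58, and 23 background probes averaged 5.53 to 5.68 per array. A gene below that level in the control was not above background there, and its difference is not exact. The cortex EG array stood apart in its poly-A spike-in controls, which averaged 6.42 against 7.46 to 8.23 on the other arrays. It was also the lowest in hybridisation spike-in controls (10.39 against 10.65 to 11.33) and in the median of positive controls (10.74 against 11.01 to 11.20). Differences within the outer medulla do not use that array and stand beside those of the cortex. The fits that average or compare the zones do use it.

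Macrophages of the kidney arise from resident cells and from blood monocytes, depend on signals through the receptor CSF1R, and take up crystals, dead cells and microbes. They recognise these through scavenger receptors, lectins, Fc receptors and complement receptors, and several of those signal through small adaptors with a tyrosine activation motif. The phagocyte NADPH oxidase then makes superoxide at the engulfing membrane. The transcription factor PU.1, encoded by Spi1, is the lineage factor that many of these genes depend on.

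PU.1 binds sites that often hold the letters AGGAAGT, called the core here, and the regions before the start of the genes are shown because most of the genes were higher together on the EG arrays. RefSeq promoters (build GRCr8) were matched for 24 of the 36 genes, and the 250 bases before the start were searched for AGGAAGT on both strands, with no other motif searched. Of the 24, 5 held it (20.8%), namely Ptprc, Mrc1, Cd53, Lyz2 and Tlr4, against 2368 of 33469 promoters in all (7.08%). The 4 of these whose difference between the EG and the control array was at least 1 in both zones are printed, with the core in capitals as read on the strand of the gene, ACTTCCT where it lies on the opposite strand. In Ptprc it occurred 2 times, at 118 and at 67 bases before the start, in Mrc1 at 211, in Cd53 at 46 and in Lyz2 at 100.
Ptprc, chr13:52259747-52259996, minus strand: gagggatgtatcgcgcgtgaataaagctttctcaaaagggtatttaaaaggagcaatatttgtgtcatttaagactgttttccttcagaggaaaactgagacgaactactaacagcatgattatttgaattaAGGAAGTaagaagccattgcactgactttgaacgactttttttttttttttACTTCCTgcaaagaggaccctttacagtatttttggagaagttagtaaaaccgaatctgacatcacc
Mrc1, chr17:82157475-82157724, plus strand: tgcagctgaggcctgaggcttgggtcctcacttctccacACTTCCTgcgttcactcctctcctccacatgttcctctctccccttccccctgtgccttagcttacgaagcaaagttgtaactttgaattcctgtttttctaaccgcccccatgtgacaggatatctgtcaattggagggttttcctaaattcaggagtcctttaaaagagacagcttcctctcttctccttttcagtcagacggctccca
Cd53, chr2:197087897-197088146, minus strand: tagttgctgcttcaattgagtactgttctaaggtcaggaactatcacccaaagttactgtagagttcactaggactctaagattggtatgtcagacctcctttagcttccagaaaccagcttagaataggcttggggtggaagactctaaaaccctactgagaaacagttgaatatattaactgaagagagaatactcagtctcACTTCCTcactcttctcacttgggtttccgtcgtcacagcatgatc
Lyz2, chr7:54798012-54798261, minus strand: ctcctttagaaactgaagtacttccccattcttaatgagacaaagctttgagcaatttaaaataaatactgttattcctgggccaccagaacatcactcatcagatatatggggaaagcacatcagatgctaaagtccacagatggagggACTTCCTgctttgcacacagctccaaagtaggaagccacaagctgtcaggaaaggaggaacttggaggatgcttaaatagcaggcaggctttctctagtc
A match describes these letters and shows no binding, and its relation to the EG differences was not tested. The promoters of the other 19 matched genes, Cd68 and Csf1r among them, did not hold the core in this window.

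Nearly the whole group was higher in EG kidneys. The EG array lay above the control array for 35 of 36 genes in both zones, where 33.9% of all 23188 transcript probe sets did so, the exception being Cyba in the cortex. A difference of at least 1 upwards was seen for 30 of the 36 in the cortex (7.19% of all transcript probe sets), for 21 in the outer medulla (6.0%) and for 20 in both zones (3.04%). Cyba in the cortex was the only value at least 1 lower, as were 7.90% of all probe sets. With values below background set to the background mean of their array, called the background floor below, the 3 counts were 28, 20 and 19, without Itgam and, in the cortex, Trem2. The median difference was 1.67 (cortex) and 1.19 (outer medulla), against 0.04 and 0.01 over all transcript probe sets. In both zones the EG array was the highest of the 4 for 32 genes (background 17.3%), and for 26 the array of EG with phlorizin came second to it (6.05%). Whether more cells of a type or more RNA per cell lie behind a higher value cannot be told apart in whole tissue. With each array centred on its median or after quantile normalization, 34 of 36 lay above the control in both zones, Ncf4 being the added exception. With the background floor, the EG difference was -0.16 (cortex) and -0.004 (outer medulla) for Marco and -0.16 and 0.03 for Ncf4. Under that floor neither gene lay above the control in both zones, so their place among the 35 rests on values below background.

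**Figure D1:**
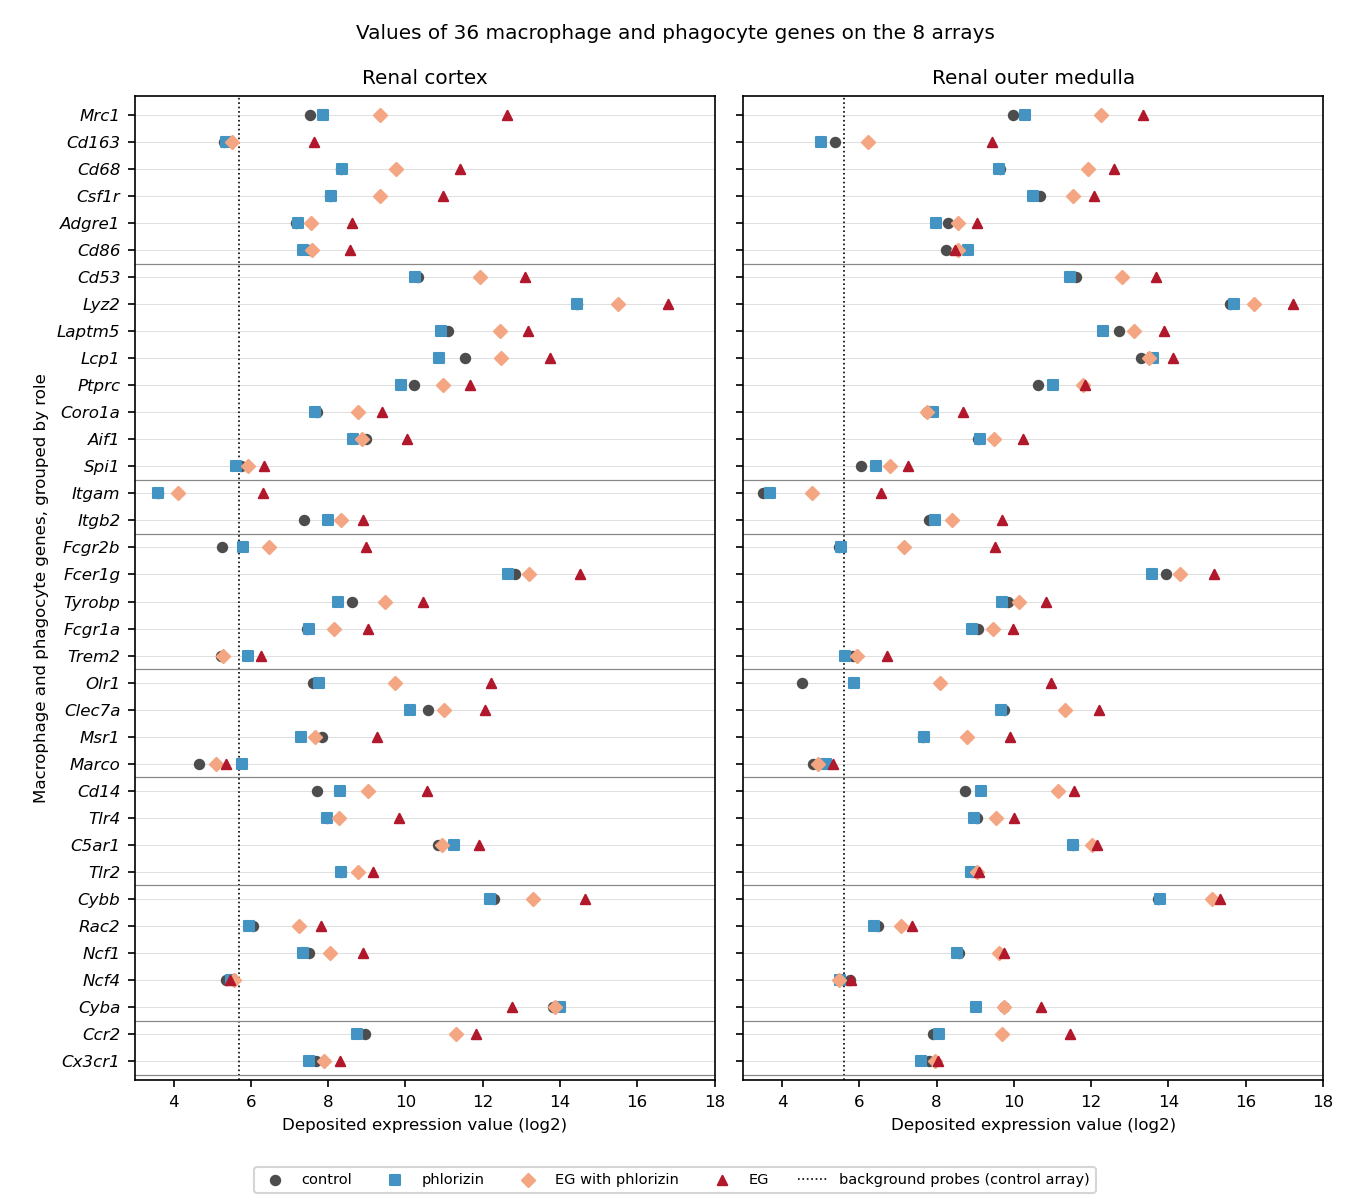
Deposited log2 values (horizontal axis) of the 36 genes in the renal cortex (left) and outer medulla (right), grouped by role, with 1 symbol per array for control, phlorizin, EG with phlorizin and EG and a dotted line at the mean of the background probes on the control array of the zone. The EG array is the highest of the 4 in both zones for 32 of the 36 genes, and the control and phlorizin arrays lie close together.

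**Figure D2:**
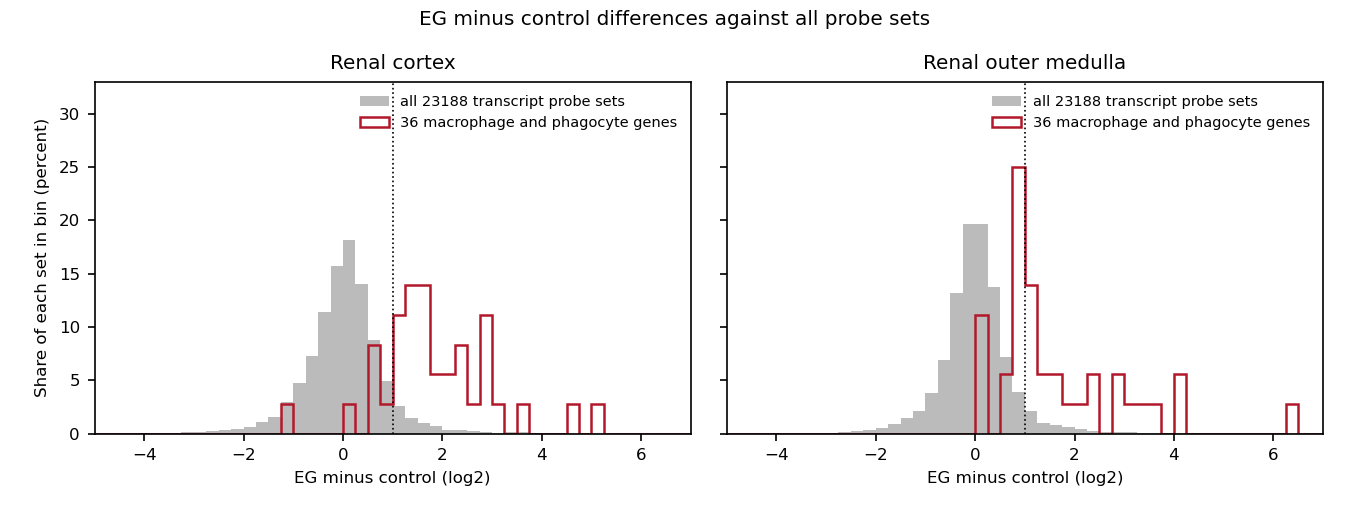
Differences between the EG and the control array (log2, horizontal axis, bins of 0.25) of all 23188 transcript probe sets (grey) and of the 36 genes (red outline), as the percentage of each set per bin (vertical axis), with a dotted line at 1. The 36 genes centre on 1.67 (cortex) and 1.19 (outer medulla), while all probe sets centre near 0.

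EG was tested with limma on the 4 treatment profiles averaged over the zones. Of the 36 genes 31 passed the filter on low values, with their highest array at or above the median of all values (7.54), and none had an adjusted p under 0.05, against 0.0380% of 13170 probe sets that were called higher and 0.00% lower. At an unadjusted p under 0.05, 26 of the 31 were higher and 0 lower, where the background was 9.86% and 12.9%. The spread in that fit is the inequality of the EG difference between animals with and without phlorizin, and its adjusted p-values for the 31 genes started at 0.0696. The EG coefficients were 2.43 (SE 0.31, limma adjusted p = 0.0696) for Cd68, 2.65 (SE 0.31, limma adjusted p = 0.0696) for Ccr2 and 1.97 (SE 0.28, limma adjusted p = 0.0746) for Cd53. The call depended on the settings. It held for 18 of 31 genes with each array centred on its median (background 3.62%), for 20 with the 8 arrays as samples and treatment as a random block (6.30%), for 15 of 36 without the filter (1.73%) and for Cd68, Ccr2 and Cd53 with a trend in the prior variance (0.357%), in each case higher with EG. The fit on 8 arrays counts the zones of a treatment as separate samples (fitted correlation -0.10), although they can come from the same animals. In the outer medulla arrays alone, limma called 6 of 31 genes higher (Cd14, Cd53, Cd68, Clec7a, Cybb and Mrc1; background 1.78%), and in the cortex arrays alone 0 (0.0456%). Cd163, Fcgr2b and Rac2 passed the filter through an EG arm alone, and Spi1, Itgam, Trem2, Marco and Ncf4 did not pass it. Without those 3 genes, 23 of 28 were higher and 0 lower at an unadjusted p under 0.05. The counts of calls in the other settings were not repeated without them.

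Markers of the lineage differed widely in size. Mrc1, the mannose receptor of macrophages and some endothelial cells, stood at 7.53, 7.87, 9.35 and 12.64 in the cortex for control, phlorizin, EG with phlorizin and EG, the order used for all values that follow. In the outer medulla it stood at 9.98, 10.29, 12.27 and 13.35. Both EG arms were above both arms without EG in each zone, and the EG differences without phlorizin were 5.10 (cortex) and 3.36 (outer medulla). Cd68, a lysosomal glycoprotein of phagocytes, was at 8.34, 8.35, 9.76 and 11.41 in the cortex and at 9.65, 9.62, 11.93 and 12.59 in the outer medulla. Its control and phlorizin arrays were nearly equal in each zone, and EG differed from control by 3.07 and 2.95. Csf1r, the receptor for the macrophage growth factors CSF1 and IL-34, was at 8.05, 8.07, 9.35 and 10.97 in the cortex and at 10.68, 10.48, 11.54 and 12.07 in the outer medulla. Its outer medulla control array was close to its cortex EG array, so the zones overlapped for this gene.

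Cd163, the scavenger receptor for haemoglobin bound to haptoglobin, was near background without EG. In the cortex it was at 5.30, 5.37, 5.52 and 7.64 and in the outer medulla at 5.38, 4.99, 6.23 and 9.44. Only the EG array stood clear of background in the cortex, with EG with phlorizin close to both arms without EG. Adgre1, an adhesion receptor of tissue macrophages, spanned 7.17 to 8.62 over the cortex arrays and 7.99 to 9.04 over those of the outer medulla, with EG differences of 1.45 and 0.76. Cd86, a costimulatory molecule of antigen-presenting cells, was 1.02 higher with EG in the cortex, but in the outer medulla its 4 values of 8.25, 8.82, 8.55 and 8.47 had the phlorizin array on top. Of these 6 genes 4 were at least 1 higher with EG in both zones, and the median was 2.63 (cortex) and 2.17 (outer medulla).

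A group of 8 genes, some shared by most leukocytes (Ptprc, Cd53, Laptm5, Lcp1, Coro1a) and some of myeloid cells (Lyz2, Aif1, Spi1), had smaller median differences than the lineage markers. Ptprc encodes CD45, the phosphatase that marks all white blood cells, and was at 10.22, 9.88, 10.96 and 11.68 in the cortex and at 10.62, 11.02, 11.80 and 11.83 in the outer medulla. In the outer medulla the arrays of EG with and without phlorizin were nearly equal, while in the cortex they differed by -0.72. Cd53, a tetraspanin of leukocytes, was at 10.33, 10.24, 11.94 and 13.10 and at 11.62, 11.45, 12.80 and 13.68. Here both EG arms were at least 1 above both other arms in each zone. Laptm5, a lysosomal membrane protein of blood cells, differed by 2.07 and 1.16 with EG, and Lyz2, the lysozyme of monocytes and macrophages, by 2.35 and 1.63 at high levels of 14.44 and 15.58 in the control. Aif1, which encodes the actin-binding protein IBA1, differed by 1.07 and 1.17, and in the cortex its array of EG with phlorizin (8.88) lay between phlorizin (8.64) and control (8.97).

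The actin regulators Lcp1, encoding L-plastin, and Coro1a, encoding coronin, shared a zone pattern. Lcp1 was at 11.53, 10.87, 12.47 and 13.74 in the cortex and at 13.30, 13.59, 13.50 and 14.13 in the outer medulla. Coro1a was at 7.72, 7.67, 8.76 and 9.39 and at 7.76, 7.90, 7.76 and 8.68. In the cortex both EG arms were above both other arms for both genes, whereas in the outer medulla EG with phlorizin was not above the phlorizin array. The EG coefficient of Lcp1 differed between the zones by -1.53 (outer medulla minus cortex, SE 0.27, limma adjusted p = 0.211), which did not pass. Spi1 itself was low, between 5.60 and 6.34 over the cortex arrays and between 6.05 and 7.26 over those of the outer medulla, with its EG array highest in each zone. Of the 8 genes of this group 5 were at least 1 higher with EG in both zones, and the median was 1.87 (cortex) and 1.19 (outer medulla).

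Among the integrins, Itgam, the CD11b chain of complement receptor 3, was below background in the control. It was at 3.60, 3.59, 4.10 and 6.32 in the cortex and at 3.50, 3.69, 4.76 and 6.57 in the outer medulla, and only the EG arrays exceeded the background mean. With values below background set to that level, its EG differences became 0.64 and 0.97. Itgb2, the CD18 chain that pairs with CD11b, was at 7.38, 8.01, 8.33 and 8.89 and at 7.80, 7.96, 8.39 and 9.70. For both chains the array of EG with phlorizin was nearer to the arms without EG than to the EG array in the outer medulla.

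Fc receptors bind antibodies, and Fcer1g and Tyrobp (DAP12) are the adaptors that carry the activation motif for many phagocyte receptors. Fcer1g was at 12.85, 12.66, 13.19 and 14.51 in the cortex and at 13.93, 13.57, 14.29 and 15.18 in the outer medulla. Tyrobp was at 8.63, 8.26, 9.46 and 10.45 and at 9.86, 9.68, 10.12 and 10.83. Both adaptors were highest on the EG array of each zone, with EG differences of 1.67 and 1.25 for Fcer1g and 1.83 and 0.98 for Tyrobp.

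Fcgr2b, the inhibitory Fc receptor, differed far more than the adaptors. It was at 5.24, 5.80, 6.47 and 8.97 in the cortex and at 5.47, 5.53, 7.15 and 9.51 in the outer medulla. Its control values were below background and its EG differences of 3.72 and 4.04 became 3.28 and 3.92 with the background floor, and probes for it can share sequence with other Fc receptor genes. Fcgr1a, the high-affinity receptor, differed by 1.57 and 0.90. Trem2, a lipid receptor that signals through Tyrobp, stayed between 5.24 and 6.72 on all arrays, with differences of 1.02 and 0.90 near background.

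Scavenger receptors and lectins held the largest outer medulla difference of the group. Olr1, the receptor for oxidised lipoprotein found on endothelium and macrophages, was at 7.60, 7.76, 9.73 and 12.20 in the cortex. In the outer medulla it was at 4.52, 5.86, 8.09 and 10.95, with the control below background, so that its EG difference there was 6.43 as deposited and 5.36 with the background floor. Both EG arms were above both other arms in each zone. Clec7a, which encodes the glucan receptor dectin-1, was at 10.58, 10.13, 10.99 and 12.07 in the cortex and at 9.74, 9.66, 11.31 and 12.20 in the outer medulla. Msr1, the class A scavenger receptor, was at 7.84, 7.30, 7.67 and 9.25 and at 7.64, 7.68, 8.80 and 9.91, and in the cortex EG with phlorizin lay between control and phlorizin. Marco, another class A receptor, stayed at or below 5.77 on all arrays, near background.

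Sensors of microbes and complement were split. Cd14, the coreceptor for endotoxin, was at 7.72, 8.32, 9.04 and 10.56 in the cortex and at 8.74, 9.14, 11.13 and 11.55 in the outer medulla. Its EG differences were 2.85 and 2.80, and EG with phlorizin differed from EG by -1.52 (cortex) and -0.41 (outer medulla). Tlr4, the endotoxin receptor, differed by 1.87 and 0.95, and C5ar1, the receptor for the complement fragment C5a, by 1.06 and 0.61. Tlr2, the receptor for bacterial lipoproteins, stayed within 8.34 to 9.15 in the cortex and 8.88 to 9.08 in the outer medulla. Of these 4 genes Cd14 alone was at least 1 higher with EG in both zones.

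The chemokine receptors went by unequal amounts. Ccr2, which draws monocytes from blood towards CCL2, was at 8.95, 8.76, 11.31 and 11.83 in the cortex and at 7.91, 8.07, 9.69 and 11.46 in the outer medulla, from a probe set that the array does not place on a chromosome. Both EG arms were above both other arms, and EG with phlorizin differed from EG by -0.52 (cortex) and -1.77 (outer medulla). Cx3cr1, the fractalkine receptor of resident macrophages and patrolling monocytes, was at 7.69, 7.50, 7.90 and 8.32 and at 7.81, 7.60, 7.95 and 8.03. Its differences of 0.62 and 0.22 were among the smallest of the group.

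The phagocyte NADPH oxidase consists of the membrane pair Cybb (gp91phox, NOX2) and Cyba (p22phox), the cytosolic subunits Ncf1 (p47phox) and Ncf4 (p40phox), and the GTPase Rac2. Cybb was at 12.30, 12.19, 13.29 and 14.64 in the cortex and at 13.73, 13.79, 15.12 and 15.32 in the outer medulla. Ncf1 differed by 1.41 and 1.18 with EG and Rac2 by 1.75 and 0.87, while Ncf4 lay between 5.36 and 5.77 on all arrays and was near background. For Cybb, Ncf1 and Rac2 both EG arms were above both other arms in each zone.

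Cyba did not follow its partner. It was at 13.81, 14.01, 13.86 and 12.77 in the cortex and at 9.74, 9.02, 9.73 and 10.71 in the outer medulla. In the cortex the EG array was the lowest of the 4 and in the outer medulla the highest, with EG differences of -1.04 and 0.97. The difference between the zones in its EG coefficient was 1.44 (SE 0.37, limma adjusted p = 0.298) and did not pass. Its level in the control cortex, 4.07 above that in the control outer medulla, was opposite to the zone order of Cybb. Nox4, the NADPH oxidase of tubule cells that also pairs with p22phox, is not a gene of the phagocyte group, and was at 15.58, 15.74, 15.02 and 13.67 in the cortex and at 6.42, 5.59, 7.47 and 9.19 in the outer medulla. As with Cyba, EG was lowest in the cortex and highest in the outer medulla. Markers of the proximal tubule, of which 6 were measured, averaged 16.94, 16.96, 16.85 and 16.11 in the cortex and 10.13, 9.82, 9.48 and 9.94 in the outer medulla, and their part in the Cyba values was not tested.

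**Figure D3:**
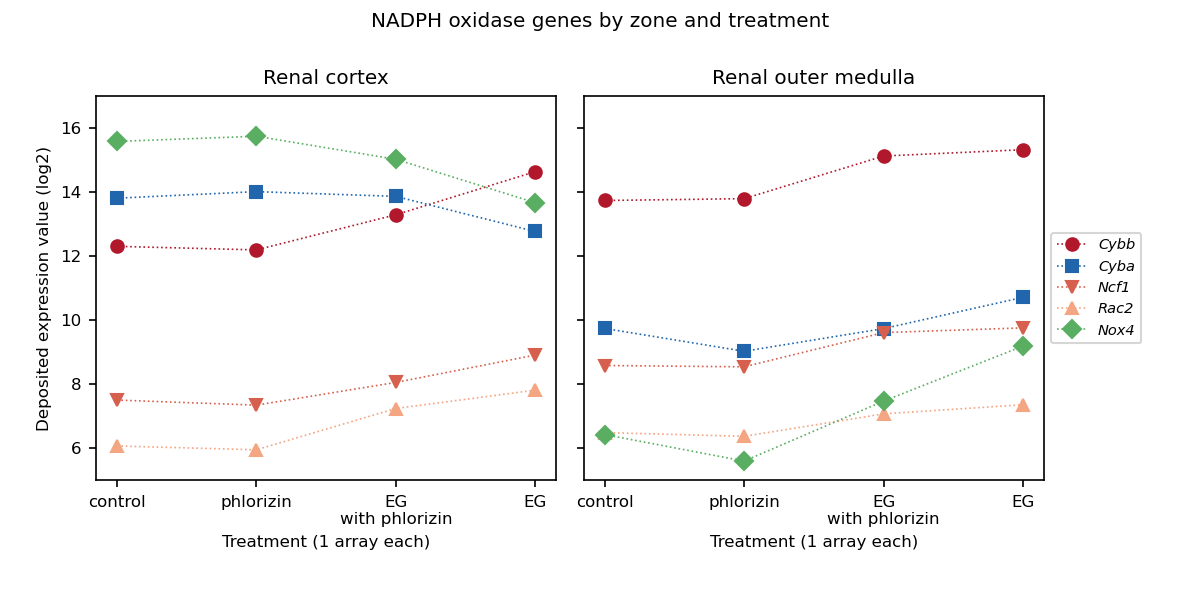
Deposited log2 values (vertical axis) of 4 genes of the phagocyte NADPH oxidase and of Nox4 by treatment (horizontal axis, 1 array each) in the renal cortex (left) and outer medulla (right), joined by dotted lines for legibility only. Cybb, Ncf1 and Rac2 are highest on the EG array of both zones, whereas Cyba and Nox4 are lowest on it in the cortex and highest on it in the outer medulla.

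Under phlorizin the median EG difference of the group was smaller. Between the arrays of EG with phlorizin and of phlorizin, 28 of 36 genes were higher in both zones (25.9% of all transcript probe sets), and by at least 1 these were 14 in the cortex (1.69%), 14 in the outer medulla (2.67%) and 7 in both (0.574%). The last 7 were Csf1r, Cd68, Mrc1, Cd53, Olr1, Cybb and Ccr2. Median differences were 0.66 (cortex) and 0.71 (outer medulla). The largest were those of Ccr2 in the cortex (2.56) and of Cd68 in the outer medulla (2.31). The same difference was 0.15 (cortex) and 1.23 (outer medulla) for Cd163 and 0.67 and 1.62 for Fcgr2b. Itgam was below background on all 4 of the arrays compared here, so its difference has no value. With the background floor 12 genes in place of 14 were at least 1 higher in the outer medulla, without Cd163 and Itgam, and the counts of at least 1 in the cortex and in both zones did not differ. With that floor, Cd163 and Itgam each differed by -0.03 in the cortex, so they were not among the genes higher in both zones. Trem2, Marco, C5ar1 and Cyba were lower with EG under phlorizin in the cortex, and Cd86, Coro1a, Lcp1, Marco and Ncf4 in the outer medulla, none of them by 1.

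Among EG animals, 33 of 36 genes were lower in both zones on the array with phlorizin (background 32.5%). The count of genes lower by at least 1 was 18 in the cortex (4.57%), 9 in the outer medulla (3.10%) and 7 in both (1.05%), namely Mrc1, Cd163, Lyz2, Itgam, Fcgr2b, Msr1 and Olr1. Itgam was below background with EG and phlorizin, and with the background floor it was -0.77 and -0.91 from EG, which leaves counts of 17, 8 and 6. Marco differed by 0.02 (cortex) and 0.06 (outer medulla) with that floor, so it was not among the genes lower in both zones. Cyba in the cortex was the only value at least 1 higher (4.38%). The median differences were -1.03 (cortex) and -0.69 (outer medulla). Mrc1 was the furthest apart in the cortex, at -3.29, and differed by -1.08 in the outer medulla. Cd163 differed by -2.12 (cortex) and -3.21 (outer medulla), Olr1 by -2.47 and -2.87 and Fcgr2b by -2.50 and -2.36. Other genes were close in the outer medulla, where Ptprc differed by -0.03, Tlr2 by -0.04, Ncf1 by -0.15 and Cybb by -0.20. This comparison uses the same EG arrays as that of EG with control, so a high EG array enters both, and with 1 array per group neither was tested. In the cortex it also rests on the array whose spike-in controls stood apart.

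**Figure D4:**
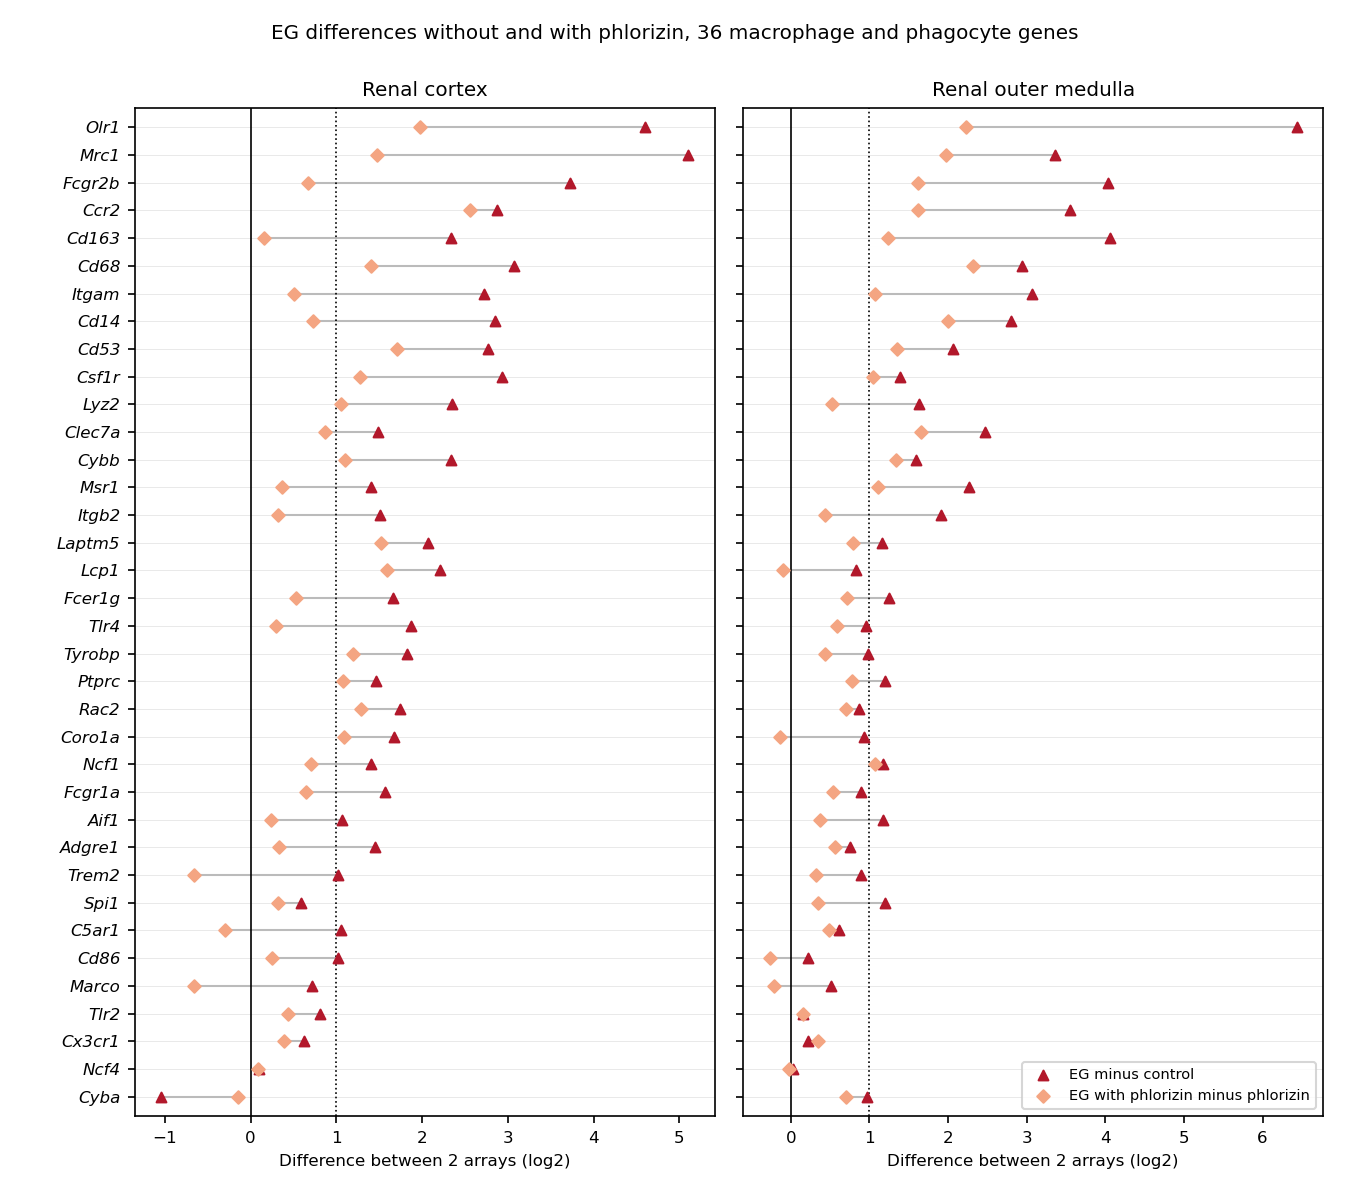
Log2 differences (horizontal axis) of EG minus control (red triangles) and of EG with phlorizin minus phlorizin (orange diamonds) for the 36 genes in the renal cortex (left) and outer medulla (right), sorted by the mean EG difference, with lines at 0 and at 1. Most diamonds lie to the left of their triangle, with medians of 0.66 (cortex) and 0.71 (outer medulla) against 1.67 (cortex) and 1.19 (outer medulla).

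Phlorizin without EG left the group near the control. The median differences were -0.01 (cortex) and -0.02 (outer medulla), and 17 of 36 genes were above the control in each zone (46.6% and 50.9% of all transcript probe sets). None was at least 1 apart in the same direction in both zones (background 0.0259% higher and 0.0129% lower). Marco in the cortex (1.12) and Olr1 in the outer medulla (1.34) were at least 1 higher in 1 zone (background 0.914% and 0.733%), both from controls below background. With the background floor their differences were 0.09 and 0.26.

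The phlorizin term of the limma fit averages over the arms with and without EG and is no test of phlorizin alone. Its median over the 31 genes was -0.52, and 0 of them passed, as did 0 of all 13170 probe sets (0.00%). At an unadjusted p under 0.05 limma had 0 higher and 3 lower (background 1.53% and 2.02%), namely Cd163, Fcer1g and Msr1. Of these, Cd163 passed the filter through an EG arm alone. Without EG, phlorizin differed from control by 0.06 (cortex) and -0.38 (outer medulla) for Cd163, by -0.19 and -0.36 for Fcer1g and by -0.54 and 0.05 for Msr1. Among EG animals the corresponding differences were -2.12 and -3.21 for Cd163, -1.32 and -0.89 for Fcer1g, and -1.59 and -1.11 for Msr1.

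Most of the tested genes were higher in the outer medulla than in the cortex. In the limma fit over 8 arrays with the treatment as a block, 18 of 31 genes were higher in the outer medulla (background 32.7%) and 3 lower (18.8%). Mrc1 was higher there by 2.12 (SE 0.35, limma adjusted p = 0.003), Csf1r by 2.08 (SE 0.26, limma adjusted p = 0.00099), Cd68 by 1.48 (SE 0.20, limma adjusted p = 0.00136), Fcgr1a by 1.33 (SE 0.16, limma adjusted p = 0.000803) and Cybb by 1.39 (SE 0.21, limma adjusted p = 0.00215), each in 4 of 4 treatments. Cyba at -3.81 (SE 0.44, limma adjusted p = 0.000659), Olr1 at -1.97 (SE 0.29, limma adjusted p = 0.00204) and Ccr2 at -0.93 (SE 0.22, limma adjusted p = 0.013) were lower there, again in 4 of 4 treatments. Cx3cr1, Rac2, Clec7a, Coro1a, Aif1, Itgb2, Fcgr2b, Msr1, Tlr2 and Cd163 did not pass. Without the block of treatment 4 of 31 genes passed, with 25.9% of all probe sets higher and 15.1% lower, and those were Csf1r, Fcgr1a and Ncf1 (higher) and Cyba (lower). The arrays of a treatment can come from the same kidneys, and the p-values measure the spread of the zone difference over treatments, not between animals.

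The median gap between zones was smallest with EG. For control, phlorizin, EG with phlorizin and EG, the numbers of genes at least 1 higher in the outer medulla were 15, 13, 13 and 3 of 36, where 11.0%, 12.5%, 12.8% and 6.95% of all transcript probe sets were. The median gaps were 0.59, 0.66, 0.71 and 0.41. The gap of Csf1r was 2.63, 2.41, 2.19 and 1.09 in that order, and that of Mrc1 2.45, 2.42, 2.91 and 0.71. Cd163 went the other way, with 0.08, -0.37, 0.71 and 1.80. The share of all probe sets past 1 was lower with EG as well. The gaps with EG rest on the cortex EG array, whose spike-in controls stood apart. As a test of the EG difference between zones, limma called 0 of 31 genes (background 0.00%). At an unadjusted p under 0.05 it had 4 genes more positive in the outer medulla (Cd163, Msr1, Clec7a and Cyba) and 5 more positive in the cortex (Laptm5, Coro1a, Lcp1, Tyrobp and Rac2), with a background of 6.48% and 5.89%. Of these genes, Cd163 and Rac2 passed the filter through an EG arm alone.

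**Figure D5:**
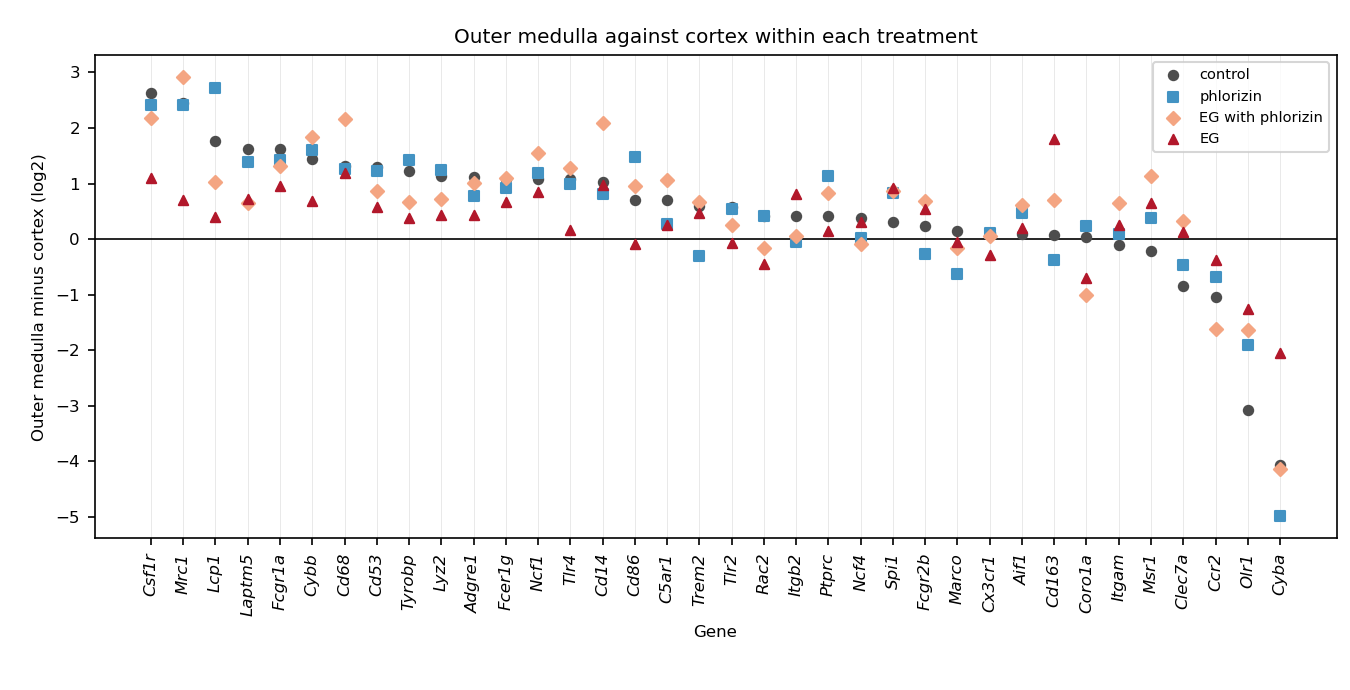
Outer medulla minus cortex (log2, vertical axis) for the 36 genes (horizontal axis, sorted by the control), with 1 symbol for each treatment. Most genes lie above 0, Cyba, Olr1 and Ccr2 lie below it in all 4 treatments, and the EG symbols number 3 at or above 1 against 15 for the control.

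A further list of macrophage and phagocytosis genes, not part of the 36, showed like values. Of 29 measured, 15 were at least 1 higher with EG in both zones (background 3.04%) and 0 at least 1 lower (2.60%). The medians were 1.82 (cortex) and 1.33 (outer medulla), and Vsig4 was below background on all arrays. Limma called 0 of the 27 tested for EG, and 20 were higher and 0 lower at an unadjusted p under 0.05 (background 9.86% and 12.9%). Some of the 27, Mmp12 and Siglec1 among them, passed the filter through an EG arm alone, and the count was not repeated without them. Mmp12, the macrophage elastase, was at 6.36, 5.76, 8.22 and 10.51 in the cortex and at 4.87, 4.97, 9.36 and 11.78 in the outer medulla. The outer medulla values of Mmp12 without EG were below background. Gpnmb, a glycoprotein of lipid-laden macrophages that injured tubules also make, was at 6.0, 6.22, 9.19 and 11.57 and at 7.71, 7.36, 10.62 and 13.08. Lgals3, which encodes galectin-3, differed by 3.38 and 3.0 and the lectin receptor gene Clec10a by 2.91 and 2.85. All these 4 were in the order control or phlorizin, EG with phlorizin, EG in both zones.

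Factors that draw, feed or come from macrophages were more mixed. Of 15 measured, 5 were at least 1 higher with EG in both zones (background 3.04%), and Arg1, Csf2, Il10 and Nos2 were below background on all 8 arrays. Limma called 0 of 8 tested, with 5 higher and 0 lower at an unadjusted p under 0.05 (background 9.86% and 12.9%). Ccl2, the ligand of CCR2, was at 8.06, 8.46, 11.18 and 11.56 in the cortex and at 10.85, 11.71, 12.43 and 12.31 in the outer medulla, where EG with phlorizin was as high as EG. Il34, a ligand of CSF1R made by tubules, was at 8.77, 9.10, 9.54 and 10.54 and at 6.86, 7.02, 6.78 and 8.47. In the outer medulla only its EG array stood above the others. C3, the central complement component, differed by 3.02 and 3.30 and Tgfb1, a profibrotic cytokine, by 2.46 and 0.97. Of 5 other NADPH oxidase genes 0 were at least 1 higher in both zones, limma called 0 of 3 tested, with 0 at an unadjusted p under 0.05, and Nox1 and Noxa1 were below background on all arrays. Rac1, the broadly expressed relative of Rac2, differed by 0.70 and 0.25 and Cybc1, a chaperone of the membrane pair, by 0.63 and 0.41.

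Markers of other blood cells were mostly dim, less so those of dendritic cells. Of 9 neutrophil markers 7 (Camp, Csf3r, Cxcr2, Ltf, Mmp8, Ngp and S100a8) were below background on all arrays, 0 passed the filter, and the list averaged 4.64 to 4.93 over the 8 arrays. Of 10 markers of T and NK cells 2 passed, Cd4 and Cd2, and the list averaged 5.99, 6.21, 6.31 and 6.82 in the cortex and 6.25, 6.37, 6.52 and 6.59 in the outer medulla, with Cd3g and Gzmb below background on all arrays. Cd4 was at 11.28, 11.08, 12.22 and 13.81 in the cortex and at 12.73, 12.75, 14.27 and 14.74 in the outer medulla, and rat macrophages are known to carry CD4. Cd2, a marker of T and NK cells, was at 7.60, 7.72, 7.87 and 8.29 and at 7.67, 7.53, 7.62 and 7.45. The medians with EG were 0.73 (cortex) and 0.07 (outer medulla) for that list, -0.10 (cortex) and 0.23 (outer medulla) for 3 markers of B and plasma cells, 0.46 (cortex) and 0.13 (outer medulla) for 7 of dendritic cells, -0.08 (cortex) and 0.08 (outer medulla) for 6 of mast cells and 0.01 (cortex) and 0.36 (outer medulla) for 3 of platelets. Blnk (B cells) differed by 0.69 and 0.55 and Kit (mast cells) by 0.12 and 0.10. Of the 7 dendritic cell markers 6 passed the filter, and the list averaged 7.02 to 7.68 over the 8 arrays. Limma called 0 of the 6 for EG, with 2 higher and 0 lower at an unadjusted p under 0.05 (background 9.86% and 12.9%). Among them, Xcr1 differed by 0.34 and 1.39, Zbtb46 by -0.36 and -1.0, Irf8 by 0.52 and 0.65 and Ccr7 by 0.86 and 0.26. The Xcr1 values of the outer medulla were below background. Genes such as Ptprc, Coro1a, Rac2 and Laptm5 are shared with lymphocytes, whose part in their values was not tested.

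Markers of other cells of the tissue differed as well. Endothelial cells can also express Olr1 and Mrc1. Their 8 markers averaged 10.52, 10.40, 10.17 and 9.85 in the cortex and 11.43, 11.43, 11.16 and 10.69 in the outer medulla, lowest with EG. Vwf was below background on all arrays, and 3 of the 8 were at least 1 lower with EG in both zones (background 2.60%). Fibroblast markers averaged 9.66, 9.57, 10.28 and 12.24 and 10.38, 10.48, 11.57 and 12.55. Lum was below background, and 5 of 6 were at least 1 higher with EG in both zones (background 3.04%). The 4 red cell markers averaged 11.19, 10.69, 10.50 and 8.24 and 13.74, 13.87, 14.03 and 11.31, and those of the thick ascending limb 14.87, 14.75, 14.40 and 13.25 and 17.48, 17.26, 17.09 and 16.52. All 7 tubule injury markers were at least 1 higher with EG in both zones (background 3.04%), and limma called 3 of them higher (0.0380%). The 36 genes averaged 8.38, 8.40, 9.13 and 10.24 in the cortex and 8.87, 8.90, 9.73 and 10.55 in the outer medulla, and the part of these other cells in their values was not tested.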

How the data were processed

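Per the submitters' processing notes, the authors deposited log2 values made by RMA from Clariom S arrays. No source used here gives a version of RMA. The base of the logarithm was taken from the range of values, 2.28 to 19.7. Of 24834 probe sets, 1646 controls were left out. Of the other 23188, 15049 had 1 gene symbol in the platform annotation, 0 had several and 8139 had none. Values were used as deposited. Counts of differences of at least 1 used all 36 genes with a probe set. Tests used the 13170 probe sets whose highest value reached the median of all values (7.54).

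limma 3.58.1 in R 4.3.3 gave 2-sided moderated tests with Benjamini-Hochberg adjustment over all tested probe sets, called at an adjusted p under 0.05. Both agents were terms of 1 fit on 4 profiles, each the mean of both zones of a treatment, with 1 residual degree of freedom. The zones were fitted over 8 arrays with treatment as a block. The EG difference between zones was fitted on the outer medulla minus cortex differences, a test added after seeing the data. The labels name no separate animals, so p-values measure only the spread between these arrays. The scripts were tested on simulated data. Counts and figures were made in Python 3.11.15 (pandas 2.3.3, numpy 2.4.6, matplotlib 3.10.9).

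The 36 genes and all lists were chosen with earlier results of these data known. All of the genes are named, and of each other list up to 4 tested genes with the largest mean EG difference, as space allows. Genes named because they passed a count, lay below background or held a motif, and those of the closing section, were chosen after their values were seen. Alternatives covered normalization, the filter, a background floor, the difference required, the prior variance, fits on 8 arrays or on 1 zone, and leaving out pairs of arrays. The number of arrays limits the precision of every value.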

Additional observations from a re-analysis of the deposited data

Results flagged for a closer look

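Cyba, the p22phox subunit, differed in opposite directions in the zones. With EG against control it differed by -1.04 in the cortex and by 0.97 in the outer medulla. Between EG with phlorizin and EG alone it differed by 1.10 in the cortex and by -0.98 in the outer medulla. These differences rest on 1 array per group. The zone difference of its EG coefficient was 1.44 (SE 0.37, limma adjusted p = 0.298) and did not pass, and the zone difference of its difference with phlorizin among EG animals was not tested.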

How the results depend on the processing

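With the values as deposited, limma called 0 of the 31 tested genes for EG (background 0.0380% higher). Under other settings all calls were higher. Centring each array on its median gave 18 (3.62%), no filter 15 of 36 (1.73%) and a trend in the prior variance 3 (0.357%). With the 8 arrays as samples and treatment as a random block (fitted correlation -0.10) the number was 20 (6.30%). In the outer medulla arrays alone it was 6 (1.78%). The number was 0 with quantile normalization (0.00%), with the filter on the mean (0.0431%) and in the cortex arrays alone (0.0456%). The cause was not tested, and the fit on 8 arrays counts the zones of a treatment as separate samples. The counts in these other settings were not repeated without Cd163, Fcgr2b and Rac2, which passed the filter through an EG arm alone. For phlorizin the number called was 0 in all 9 settings, among these genes and over all tested probe sets. For the zones, 21 genes were called with the treatment block (background 32.7% higher and 18.8% lower) and 4 without it (25.9% and 15.1%). When the pair of arrays of 1 treatment was left out, 15 to 22 were called. The background then ran from 21.8% to 35.3% higher and from 13.6% to 21.5% lower. Over the 31 genes, 19 were at least 1 higher with EG in both zones (4.90% of all probe sets past the filter), and 8 at least 2 higher. For EG with phlorizin against phlorizin 7 passed at 1 (0.995%), 14 at 0.58 and 0 at 2. For EG with phlorizin against EG 6 were lower by 1 (1.72%), 15 by 0.58 and 3 by 2. The share of all probe sets at 0.58 and at 2 was not counted. Medians of the 31 genes moved by less than the spread of phlorizin against control (scaled median absolute deviation 0.30 for cortex, 0.27 for outer medulla) under all alternatives run. The genes below background in the control bound their differences least well. The labels give 1 array per group and no replicate numbers, so the arrays were paired by treatment in the zone fits and by nothing else.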

Other observations

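Some macrophage genes outside the 36, chosen here after their values were seen, describe kinds of macrophage. The 3 chains of complement C1q, which tissue macrophages make, were higher with EG, C1qa by 1.70 and 1.01 in the cortex and outer medulla, C1qb by 3.26 and 1.73 and C1qc by 1.82 and 1.83. Folr2, a folate receptor of resident macrophages, differed by 2.90 and 2.80, and Siglec1, the sialoadhesin of tissue macrophages, by 2.55 and 2.94, from a cortex control below background. Siglec1 was at 5.85, 6.0, 8.32 and 8.79 in the outer medulla for control, phlorizin, EG with phlorizin and EG, so that there both EG arms stood apart from both others. Lyve1, shared by lymphatic endothelium and some resident macrophages, differed by 2.34 and 0.31. Vsig4, another macrophage gene outside the 36, was below background on all arrays. Cd74, the invariant chain of MHC class II, was already at 16.55 and 16.22 in the control and differed by 0.89 and 1.07.

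Mertk, the receptor through which macrophages take up dying cells, did not share that direction and differed by -0.88 and -0.08. Its relative Axl differed by 2.48 and 2.58. Fcgr3a, a low-affinity Fc receptor gene, was at 8.58, 8.20, 8.08 and 7.88 in the cortex, where the control array was the highest, and at 7.91, 7.49, 8.51 and 8.20 in the outer medulla. Apoe, which encodes apolipoprotein E and is made by macrophages and other cells, differed by -0.32 and 3.14. None of these genes passed the limma fit of EG, and with 1 array per group their differences within a zone were not tested.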
